A study of Mus musculus with 4 samples.

Results

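Reproducible initiation zones of moderate strength are places where both replicate lists of mouse embryonic stem cells put a zone of similar extent, without a top score in either. They were chosen by position and score: a zone of set 1 and a zone of set 2 on chromosomes 1 to 19 had to share at least 50% of the width of each, and both scores had to lie below the 90th percentile of their own list. The rule found 2624 such pairs. Set 1 held 27871 zones on these chromosomes and set 2 held 24245, and 25104 and 21832 of them had a score below the limit. All reciprocal pairs numbered 5024, of which 1227 were at or above the limit in both sets and are named strong pairs here, and 1173 were at or above it in 1 set only.

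The cells were E14tg2a, a mouse embryonic stem cell line, and came as 2 groups of 2 samples. The parent line has the genotype Tet-OsTIR1::Rosa26(bi) with mAID-RNaseh2a::puroR(bi), so it expresses the auxin receptor OsTIR1 under doxycycline control and carries a degron tag on RNaseh2a, a subunit of the ribonuclease that takes ribonucleotides out of DNA. The other line has Pole1-M630F(bi) in addition. Both were kept for 24 h in doxycycline and auxinole and then for 12 h in doxycycline and IAA, so RNaseh2a depletion is common to both groups, and the labels name no untreated sample. Fragments of 300 to 2000 nt from alkali-treated genomic DNA were sequenced. Each list carries a set name that a parent and a mutant library share, and holds no value for either line alone, which leaves the lines without a comparison. Whether the replicates came from separate cultures, or the mutant line from 1 clone, is not stated, and differences between the sets may be technical.

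DNA polymerase ε copies mainly the leading strand and polymerases α and δ the lagging strand. The M630F mutant of Pole1, the catalytic subunit of ε, leaves extra ribonucleotides where it has worked, and alkali cuts DNA at each of them. Where replication forks set out in both directions, the strand made by ε switches sides, and such a switch marks initiation. In mammalian cells initiation is spread over broad zones, and a given zone is used in only some of the cells, and zones differ in how often they fire.

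The typical pair was of middling to high score, with a median width over 40 kb in both sets, although the scores reached down to percentile 0.513 in set 1 and 1.23 in set 2. In set 1 their zones had a median width of 42 kb with quartiles of 29 and 56 kb, and in set 2 of 44 kb with quartiles of 30 and 59 kb. The score is the authors' own number per zone, without a stated unit, so percentiles within each list are used here. The median score percentile of the pairs was 74.5 in set 1 and 70.3 in set 2. These values follow in part from the rule, since it sets an upper bound on the score and asks for zones of like width. At the score limit, the highest member of set 1 had 59.40 and the lowest zone outside had 59.43. In set 2 the highest member had 75.2 and the lowest zone outside had 75.4. At the overlap limit, 560 members shared from 50% to under 55% of the wider zone, and 436 pairs of moderate score shared 45% to under 50%, just outside.

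Most zones of moderate score had no such counterpart. Of the zones below the limit, members were 10.5% in set 1 and 12.0% in set 2. A further 1.69% of the set 1 zones and 3.43% of the set 2 zones matched a zone that was at or above the limit in the other set. Zones that overlapped the other list but not by the 50% rule were 39.5% in set 1 and 40.5% in set 2. Zones that touched nothing in the other list were 48.4% and 44.1%, and their median width was only 8 kb in either set. The share of members rose with the zone's own width: in set 1 from 0.470% of zones of 1 kb and 1.31% of those over 1 to 10 kb, to 15.1% of those over 20 to 40 kb and 30.4% of those over 40 kb. In set 2 the same classes held 0.645%, 1.43%, 17.7% and 26.1%. Such a rise also arises without matching positions. With set 2 moved along the chromosomes, as described below, pairs with a mean width over 40 kb numbered 791, against 1546 observed. Those of 1 kb then numbered 3.35, against 12 observed.

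Pairs of this kind also arise where 2 unrelated lists cover as much of the genome, so the number was set beside lists in which set 2 was moved round each chromosome. After 1000 circular shifts, which keep all widths, scores and spacings, the mean number of pairs was 1613, with 95% of the shifts between 1546 and 1683. The observed 2624 pairs were 1.63 times the shifted mean. No single member can be told from a coincidental one by the rule alone. For strong pairs the same comparison gave 1227 against 189, a ratio of 6.48. As the rule itself chose the pairs by overlap, this is a description and carries no test.

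Over all widths together, the excess lay at the true alignment and was gone at displacements of 43 to 52 kb. When set 2 was moved by a fixed distance on all chromosomes, the number of moderate pairs was highest at 0 kb. It had fallen to the midpoint between the observed number and the shifted mean at a displacement of -24 kb and of 29 kb. The shifted mean itself was reached at -43 kb and 52 kb. Beyond that lay a trough on both sides, with 1432 pairs at -62 kb and 1482 at 77 kb, below that mean, and farther out the profile rose above it again. Of the 461 displacements beyond the lowest points, 153 gave more pairs than the upper end of the shifted range and 39 fewer than its lower end, with up to 1744 pairs at -240 kb and 1721 at 196 kb. Set beside displacements of 200 kb to 1 Mb in place of shifts over the whole chromosome, the ratio of observed pairs was 1.59. The ends of the profile were at 1628 pairs at -300 kb and 1681 at 300 kb. Pairs with a mean width over 40 kb fell from 1546 at 0 kb to 589 at -63 kb and 661 at 63 kb. Narrower pairs had a flatter profile, with 1078 at 0 kb and a maximum of 1085 at 3 kb. They reached their shifted mean of 822 at -38 kb and 76 kb, and numbered 921 at -97 kb. Strong pairs gave a wider peak, with the same midpoint reached at -38 kb and 38 kb, and deeper troughs of 73 pairs at -98 kb and 86 at 100 kb.

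**Figure D1:**
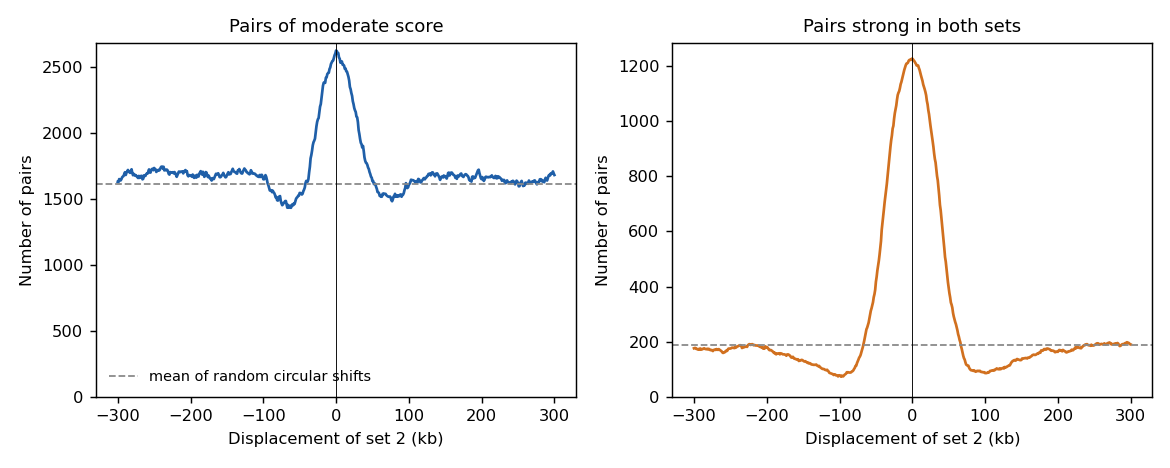
Number of reciprocal pairs (vertical axis) against the distance by which set 2 was moved towards higher positions (horizontal axis, kb), for pairs of moderate score and for strong pairs. Dashed lines give the mean of 1000 random circular shifts. The moderate pairs peak at 2624 without displacement and fall below the dashed line at 1613 on either side, then rise above it, up to 1744 at -240 kb.

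Most of the excess over shifted lists lay in wide members. Pairs with a mean width over 40 kb numbered 1546, against 791 in shifted lists (743 to 837), a ratio of 1.96. Pairs over 20 to 40 kb numbered 787 against 579 (538 to 620), a ratio of 1.36. Those over 10 to 20 kb numbered 197 against 167 (142 to 192), just above the range of shifts. Those over 1 to 10 kb numbered 82 against 72.8 (57 to 91), within it. Pairs of 1 kb were few, 12 against 3.35 (0 to 7). Members of 20 kb or less thus added few pairs to the number that shifted lists give.

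The ratio also rose with mean score percentile. Pairs whose mean score percentile was at most 18 numbered 20 against 18.3 in shifted lists (11 to 27), and those over 18 to 36 numbered 93 against 84.9 (68 to 103). Both counts lay within the range of shifts. Pairs over 36 to 54 numbered 312 against 266 (237 to 297), those over 54 to 72 numbered 876 against 619 (573 to 664), and those over 72 numbered 1323 against 624 (581 to 668). The last ratio was 2.12, the highest of the 5 classes.

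**Figure D2:**
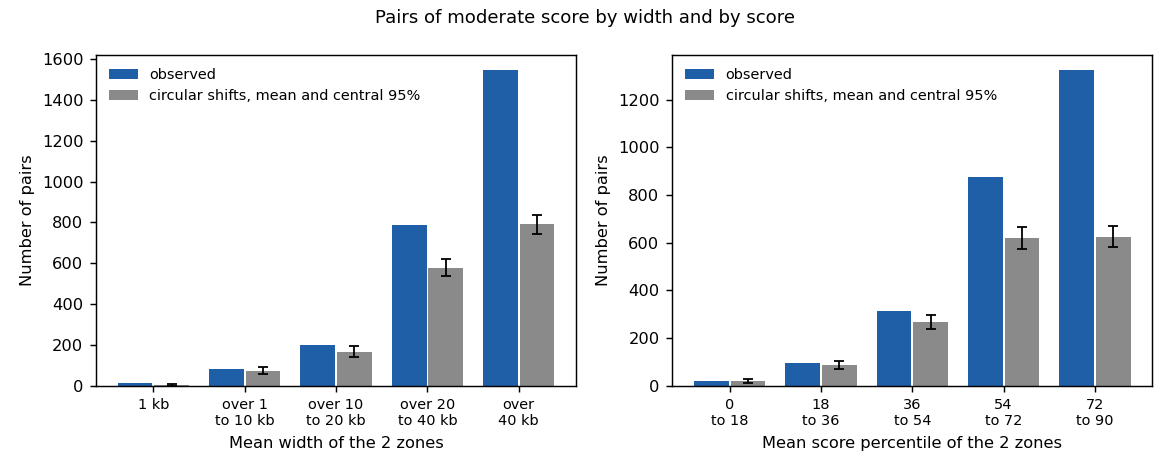
Number of pairs of moderate score (vertical axes) by mean width of the zones (left) and by mean score percentile (right), as observed (blue) and as the mean of 1000 circular shifts (grey, with bars for the central 95%). The observed counts lie within the shifted range over 1 to 10 kb and below percentile 36, and exceed it most in number in the widest and highest-scoring classes.

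Since wide zones score high, score was also compared among zones of equal width. Zones of each list below the limit were divided into 3 equal groups by score within each width. Of the members, 751 had their set 1 zone in the lowest group, 882 in the middle and 991 in the highest, at 1.41, 1.64 and 1.83 times the shifted means. The set 2 zones gave 745, 895 and 984, at 1.40, 1.67 and 1.82 times. Both lists showed the same order, higher score at a given width going with more partners. Across members, the score left after a fit on width had a rank correlation between the sets of 0.0980, against 0.0165 in shifted lists (-0.0324 to 0.0673). By chromosome this correlation averaged 0.0985 ± 0.0799 (SD, n = 19 chromosomes) and ran from -0.0142 on chromosome 2 to 0.231 on chromosome 12. It depended on how width was taken out, and was 0.212 with score per kb of width. With the score limit at the 95th percentile, which changes the members, it was 0.176. Shifted values for these alternatives were not computed. Without width taken out, the rank correlation of scores was 0.540, against 0.518 in shifted lists (0.482 to 0.554), inside the range. That of widths was 0.679, against 0.722 (0.696 to 0.745), below the range. Score percentiles differed between the sets by a median of 9.35 points, against 10.8 in shifted lists (10.1 to 11.4). Members lay more often in the highest score class than shifted pairs did, and the part of this in the smaller difference was not tested. Zones of a list share their library, so no p-value is given.

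At the same width, strong pairs exceeded their shifted number by more than moderate pairs did. Between 60 and 80 kb, 414 moderate pairs were 2.26 times the shifted mean of 183, while 407 strong pairs were 6.40 times the shifted mean of 63.6. Over 80 kb the ratios were 2.46 for 57 moderate pairs and 6.51 for 792 strong pairs. The difference between the ratios was not tested.

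Within a member, the zones of the sets were seldom bounded at the same bins. Midpoints differed by a median of 7.5 kb with quartiles of 3 and 13 kb and a maximum of 48 kb. Shifted pairs, which meet the same overlap rule, gave 7.04 kb (6.5 to 7.5), so in kb the midpoints of members were not closer. Members were also wider, with a median of mean widths of 44.5 kb against 39.7 kb (38.5 to 41), and the rule allows wider zones larger offsets. Of the bins covered by either zone, members shared a median of 59.6%, against 57.9% in shifted pairs (57.1 to 58.8), above the range. Strong pairs differed by 11 kb, below the 18.7 kb of shifted strong pairs (16 to 21.5). First positions of the moderate pairs differed by a median of 9 kb and last positions by 8 kb. The first position was the same in 134 members, against 72.4 in shifted lists (57 to 89), and the last in 153, against 72.5 (56 to 89). As a share of the pairs, these were 5.11% against 4.49% (3.52 to 5.53) for the first position and 5.83% against 4.50% (3.53 to 5.55) for the last, so only the last lay outside the range.

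No side was favoured when a zone moved. The median signed offset of midpoints, set 2 minus set 1, was 0 kb and the mean was -0.199 kb, where shifts ranged from -0.552 to 0.504. Both ends of the set 2 zone lay at lower positions in 27.3% of members and both at higher positions in 26.7%. The set 1 zone lay inside the set 2 zone in 25.8% and the set 2 zone inside the set 1 zone in 19.4%. The set 2 zone was the wider in 53.3% of members and the set 1 zone in 43.7%, and shifted pairs gave 52.6% and 44.0%. Each of these shares lay within the range of shifted pairs.

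The closest matches show how far agreement went. A strict rule, with at least 80% of each zone shared, left 440 members against 215 in shifted lists (187 to 242). Among the 1767 members with both zones at least 30 kb wide, a pair on chromosome 2 and a pair on chromosome 16 had the same bins in both sets. The pair on chromosome 2 spanned 155768000 to 155804000 (37 kb), with scores in the authors' deposited lists of 48.5 in set 1 and 25.7 in set 2. The pair on chromosome 16 spanned 90601000 to 90637000 (37 kb), with scores of 19.8 and 39.1. Equal bounds thus came with unequal score percentiles, 86.4 and 69.2 on chromosome 2 and 68.2 and 77.2 on chromosome 16. All positions are first and last 1 kb bins on GRCm39 as listed, and the genes there were not analysed here because the gene list given was on a different assembly.

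The other close matches were as wide as 90 kb. On chromosome 14 the zone at 73738000 to 73798000 in set 1 ended 1 bin later in set 2, with score percentiles of 88.8 and 65.8. On chromosome 16 the zone at 18281000 to 18329000 ended 1 bin earlier in set 2, with percentiles of 81.6 and 64.4. On chromosome 15 the zone at 15594000 to 15640000 began 1 bin earlier in set 2, with percentiles of 62.0 and 75.1. On chromosome 8 the zone at 102697000 to 102743000 began 1 bin later in set 2, with percentiles of 87.2 and 76.4. The widest of the 10, on chromosome 1 at 26331000 to 26420000, covered 90 kb in the first list and 88 kb in the second, with percentiles of 86.2 and 87.6. The remaining 3 began in set 1 at 50267000 on chromosome 14, 125446000 on chromosome 2 and 67219000 on chromosome 11, with 97.7%, 97.7% and 97.3% of their joint extent shared. In the same order, their percentiles in set 1 and set 2 were 80.4 and 83.4, 73.3 and 68.8, and 77.1 and 63.3.

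**Figure D3:**
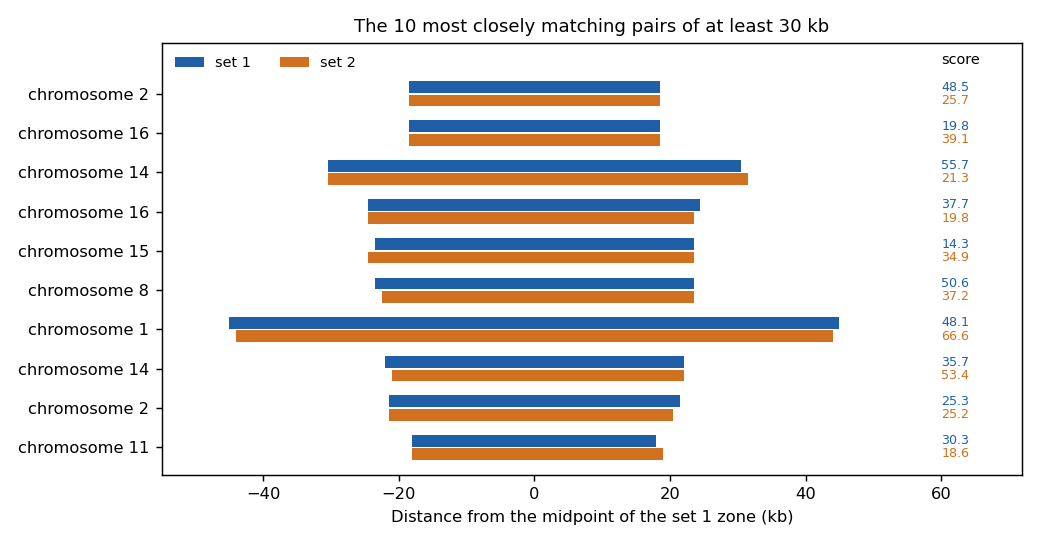
Extent of the zones of set 1 (blue) and set 2 (orange) in the 10 members of at least 30 kb with the largest shared extent, as distance from the midpoint of the set 1 zone (horizontal axis, kb). The numbers at the right are the deposited scores. The ends agree to within 1 bin in each pair, while the scores are apart in some (48.5 and 25.7 at the top) and close in others (25.3 and 25.2 in the lower pair on chromosome 2).

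The 5 members nearest the score limit in both sets shared from 60.2% to 72.9% of their joint extent, beside a median of 59.6% over all members. The highest mean percentile, 89.8, belonged to a member on chromosome 16. Its set 1 zone ran from 19224000 to 19291000 and its set 2 zone from 19243000 to 19300000, with 63.6% of the joint extent shared and midpoints 14 kb apart. Chromosome 5 held the next, whose set 1 zone ran from 28338000 to 28407000 and whose set 2 zone ran from 28349000 to 28435000, with midpoints 19.5 kb apart. The other 3 lay on chromosomes 4, 8 and 15, and began at 43946000, 127672000 and 87713000 in set 1.

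Moderate pairs were found on all autosomes at rather even density. The mean was 1.09 per Mb ± 0.104 (SD, n = 19 chromosomes), and all 19 chromosomes lay above the range of shifted lists. Chromosome 11 had the highest density, 1.33 per Mb with 158 members, followed by chromosome 10 with 1.24 and chromosome 19 with 1.22. Chromosome 13 had the lowest, 0.918 with 108 members, next to chromosome 14 with 0.926. The highest density was 1.45 times the lowest, against 1.58 in shifted lists (1.33 to 1.92), so the spread between the extremes lay inside the range of shifts. Part of this order was in the lists themselves, since shifted lists gave 0.761 per Mb on chromosome 11 and 0.594 on chromosome 13, their highest and lowest values. The ratio to the shifted mean ran from 1.42 on chromosome 8 to 1.90 on chromosome 10, with a mean of 1.63 ± 0.128 (SD, n = 19).

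The chromosome with the fewest moderate pairs per Mb had the most strong pairs per Mb. This was chromosome 13, with 0.663 strong pairs per Mb and 1.38 moderate pairs for each strong pair. Chromosome 5 was lowest in strong pairs at 0.390 per Mb, with 3.02 moderate pairs for each. Across the 19 chromosomes the Pearson correlation of the densities was -0.197 and the rank correlation -0.0667, as a description without a test. In set 1, chromosomes 10, 11, 17 and 19 had the largest shares of wide zones with a partner. Of set 1 zones over 40 kb and below the limit, 36.2%, 35.4%, 35.3% and 35.5% were members there. Chromosome 14 was lowest at 25.9%. In set 2 the same chromosomes had 32.4%, 32.2%, 27.9% and 30.9%. Chromosome 9, at 28.6%, was above chromosome 17 in set 2, and chromosome 12 was lowest at 21.5%.

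**Figure D4:**
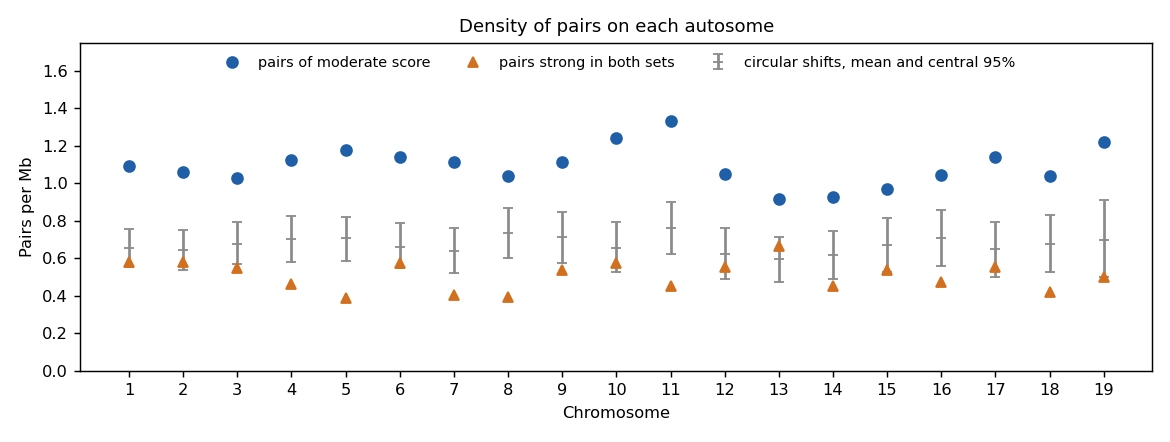
Pairs per Mb (vertical axis) on each autosome (horizontal axis): pairs of moderate score (circles), the same after 1000 circular shifts (grey, mean and central 95%) and strong pairs (triangles). The circles lie above the grey ranges on all 19 chromosomes, highest on chromosome 11 at 1.33 and lowest on chromosome 13 at 0.918.

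Along the chromosomes, moderate pairs were more numerous in the distal parts. Mouse autosomes have their centromere near the start of the sequence, so higher positions lie farther from it. Summed over 19 autosomes cut into 10 equal parts, members numbered 246 in the part next to the centromere, 224 in part 5 and 320 in part 10. The proximal 5 parts held 1187 members and the distal 5 held 1437, and the distal side had more on 14 of 19 chromosomes. Shifted lists gave 156 in part 1 and 167 in part 10, so the ratio went from 1.58 to 1.92. The share of eligible set 1 zones that were members was 9.92% in part 1 and 12.6% in part 10, and for set 2 it was 11.9% and 14.3%. Among wide zones, over 40 kb, the lists parted: the share of members went from 27.5% to 37.3% in set 1 but only from 27.4% to 28.0% in set 2, while the number of such set 2 zones went from 507 to 644. Strong pairs had the opposite course, from 150 in part 1 to 90 in part 10. By single chromosomes the end parts were less uniform, with more members in part 10 than in part 1 on 12, fewer on 6 and equal numbers on 1. Whether these courses differ beyond the spread of chromosomes was not tested.

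**Figure D5:**
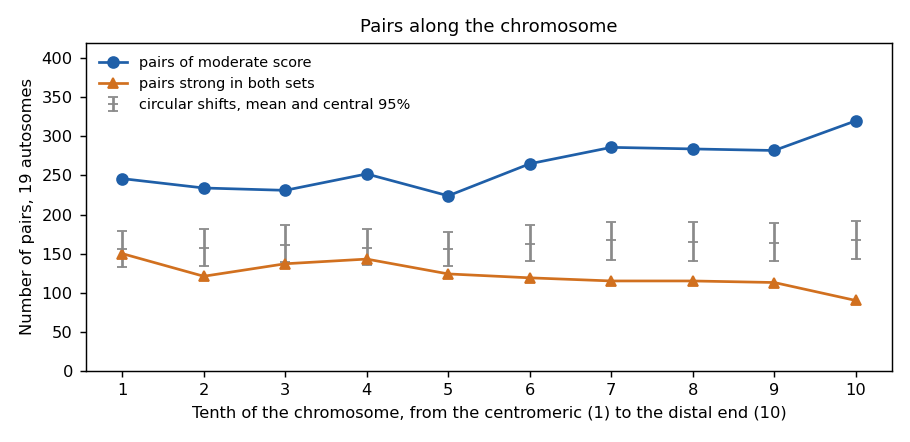
Number of pairs over 19 autosomes (vertical axis) in 10 equal parts of each chromosome from the centromeric to the distal end (horizontal axis), for pairs of moderate score (circles), circular shifts (grey, mean and central 95%) and strong pairs (triangles). Moderate pairs go from 246 to 320 while strong pairs go from 150 to 90.

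Neighbouring members lay a median of 622 kb apart, with quartiles of 265 and 1220 kb. Shifted lists gave 1010 kb (942 to 1084), as follows from their smaller number of pairs. A member was followed by another at the next set 1 zone in 279 cases, against 94.5 in shifted lists (77 to 116). This was 10.6% of members, against 5.86% of shifted pairs (4.82 to 7.07), where the shifted lists held fewer pairs to follow each other. Windows of 1 Mb held at most 6 members: of 2373 windows, 792 held none, 878 held 1 and 466 held 2. The fullest was chromosome 2 from 14000000 to 14999000, with 6. Another 8 held 5, among them the windows that start at 180000000 (chromosome 2), 114000000 (chromosome 4), 135000000 (chromosome 5) and 6000000 (chromosome 8). In 218 windows of 10 Mb the median was 11 members with quartiles of 8 and 13, and the extremes were 3 on chromosome 4 from 20000000 and on chromosome 14 from 60000000, and 21 on chromosome 11 from 80000000.

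The longest intervals without a moderate pair still held zones of both lists and strong pairs. For scale, strong pairs averaged 0.508 per Mb over the 19 chromosomes. The longest ran from 23755000 to 29558000 on chromosome 4 (5804 kb) and held 71 zones of set 1, 57 of set 2 and 4 strong pairs. The next ran from 6277000 to 12065000 on chromosome 1 (5789 kb) with 5 strong pairs, and from 21572000 to 27206000 on chromosome 11 (5635 kb) with 4. The last of the 5 were on chromosome 8 from 19067000 (5507 kb, 3 strong pairs) and on chromosome 9 from 15320000 (5438 kb, 1 strong pair). Intervals over 3 Mb between neighbouring midpoints numbered 99, against 205 in shifted lists (187 to 224). Shifted lists held fewer pairs, which in itself leaves more long intervals, so these counts do not tell how evenly members were spread.

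Few members, like few shifted pairs, had their midpoint within 100 kb of that of a strong pair. The median distance to the nearest strong pair was 782 kb, against 740 kb in shifted lists (700 to 786), and only 1.45% of members were within 100 kb of one, against 2.57% (1.91 to 3.34). Within 250 kb the share was 14.4% against 16.0% (14.3 to 17.7), inside the range. Strong pairs had a median of mean widths of 88 kb and members of 44.5 kb, so a limit of 100 kb between midpoints leaves little room for neighbours. Shifted pairs were measured from strong pairs that had not been moved. The part of either in the lower share at 100 kb was not tested, and that share was not computed for other zones below the limit. Set 1 zones below the limit that were no members lay at a median of 695 kb, and those over 20 kb wide at 732 kb. For set 2 these medians were 723 kb and 753 kb. Within chromosomes, members lay farther than the other set 1 zones on 14 of 19. The medians of single chromosomes ran from 567 kb for members on chromosome 10 to 1205 kb on chromosome 5. With the score limit at the 80th percentile, which also makes more pairs strong, the median distance was 371 kb, and at the 95th it was 1756 kb.

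Zones with a partner were about as isolated in their own list as zones of like width without one. For set 1 zones over 40 to 60 kb wide, the median gap to the nearest other zone of the list was 37 kb for members and 36 kb for the others. For set 2 zones of that width it was 44 kb and 41 kb. Between 20 and 40 kb it was 27 kb against 24 kb in set 1 and 30 kb against 28 kb in set 2.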

How the data were processed

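Fragments of alkali-cleaved genomic DNA from 4 samples were sequenced. Per the submitters' processing notes, Bowtie2 and GRCm39 were used; its version, the zone caller and the meaning of the score were not given in the sources used. The authors deposited 2 lists with a first and a last position in bases, on a 1 kb grid, and a score per zone. Read depth is unknown, so no counting error could be given. Last positions were taken as inclusive bins. The score limits, 59.4 and 75.4, are percentiles over each whole list, and 1967 zones of set 1 and 1780 of set 2 off chromosomes 1 to 19 were then left out.

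Pairs were compared with 1000 circular shifts of set 2, with 1 random offset per chromosome along the stretch between the outermost zones of both lists. Assembly gaps were kept. Ranges in brackets are the central 95% of shifts. Distances between members run between midpoints of the shared bins. No p-value was computed: each set is 1 list, and zones are not replicates. The pair search and the shifts were tested on simulated lists. The members, lists and measures were chosen with earlier results of these data known. Named regions are the 10 members of at least 30 kb with the largest shared extent, the 5 with the highest mean percentile, the 5 longest intervals and the 5 fullest windows of 1 Mb. Alternatives changed the overlap share, the score limit, the interval ends, the chromosomes, the minimum width and the range of shifts. Sequences and genes are not given, as no genome or annotation on GRCm39 was used. Calculations used Python 3.11.15, NumPy 2.4.6, pandas 2.3.3, SciPy 1.17.1 and Matplotlib 3.10.9.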

Additional observations from a re-analysis of the deposited data

Results flagged for a closer look

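The X chromosome is outside the rule, and the same search there found 142 pairs below both score limits, a signal in data that the values of the report leave out. X enters only the alternative that adds it, given with the other settings. Circular shifts of set 2 on X gave 94.6 pairs (78 to 113), a ratio of 1.50. The density was 0.854 per Mb, below all 19 autosomes, and the median width was 30.5 kb, also below all of them.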

How the results depend on the processing

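Leaving out each autosome in turn moved no value by more than its SD over chromosomes, and the number of pairs by less than 1.5 times. For the density ratio of the extreme chromosomes, the SD over circular shifts was used instead. The ratio to shifted lists then ran from 1.61 to 1.64. Plain interval ends, adding X, pairs wider than 10 kb only, score limits from chromosomes 1 to 19 and local displacements (at most 1 Mb, ratio 1.57; 200 kb to 1 Mb, ratio 1.59) kept every value computed within the same bounds. The limits from chromosomes 1 to 19 and the 200 kb minimum were chosen after seeing the data. The overlap share and the score limit define the members, and changing them moved most values. The shifts used the same settings as the observed pairs. The ratio rose with a stricter overlap share and with a higher score limit. A higher limit admits pairs of higher score, and strong pairs had a ratio of 6.48. The rise with the limit is thus not separate from the rise with score given above. With a shared extent of at least 40%, the ratio was 1.50, the midpoint offset 8.5 kb and the spacing 452 kb. With 60%, there were 1651 pairs, with an offset of 6 kb, a spacing of 970.3 kb and a density ratio of the extreme chromosomes of 1.64 (1.45 as reported). With 80%, there were 440 pairs, a ratio of 2.05, an offset of 2.5 kb, a spacing of 3565 kb, a distance to strong pairs of 2522 kb, a density ratio of 1.76 and a median width (mean of both zones) of 48 kb, where the members had 44.5 kb. With the score limit at the 80th percentile, there were 1416 pairs, a ratio of 1.39, an offset of 5.5 kb, a spacing of 1148 kb, a distance of 371 kb, a density ratio of 1.65 and a width of 33 kb. With the 95th, the ratio was 1.83, the spacing 453 kb, the distance 1756 kb and the width 52 kb. First positions differed by 9 kb, and score per kb of width gave a rank correlation of 0.212. No paired analysis was possible because neither list gives a parent and a mutant value of its own; leaving out a replicate was not possible because a pair needs both sets.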

Other observations

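Zones of at most 10 kb mostly score low: those of 1 kb had a median score of 0.210 in set 1 and 0.175 in set 2, and only 2 and 3 of them were above 20. Chosen after these values were seen, members with both zones at most 10 kb wide and both scores above the median of their list numbered 4, and those on chromosome 12 had the same bins in both sets. They were a zone of 1 kb on chromosome 12 at 22436000 (scores of 23.2 and 24.8), a zone of 9 kb on chromosome 12 at 54767000 to 54775000 with the same ends in both sets (32.9 and 35.5), a zone on chromosome 17 whose bins were 15240000 to 15242000 in set 1 and, 1 bin shorter, 15241000 to 15242000 in the other list (37.6 and 34.2), and a zone on chromosome 5 whose bins were 11588000 in set 1 and 11587000 to 11588000 in the other list (7.62 and 13.7). Of the set 1 zones of at most 10 kb, 9 of 129 with a score above the median had a partner (6.98%), against 99 of 10166 below it (0.974%). In set 2 these were 4 of 45 (8.89%) and 93 of 8084 (1.15%). As score and overlap also chose the members, these counts are a description only. Repeats and mappability at these bins were not analysed here.

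In all, 21 members had the same first and last bin in both sets, against 6.91 in shifted lists (2 to 12). Of these, 12 were 1 kb wide and 2 were over 20 kb. Where both zones are 1 kb wide, the rule leaves only the same bin, so these 12 are the pairs of 1 kb given above, against 3.35 in shifted lists.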
